A study of Mus musculus with 3 samples.

Results

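Macrophage-gated cells of healing mouse skin wounds were selected by the transcripts *Chil3* and *Ly6c2*. *Chil3* (ENSMUSG00000040809) encodes the chitinase-like protein Ym1, and *Ly6c2* (ENSMUSG00000022584) encodes the Ly6C surface antigen. A cell barcode was a member when it had at least 1000 UMIs (molecular tags that let each captured transcript be counted once), at most 10% mitochondrial UMIs, and at least 0.8% of its UMIs in the summed macrophage genes *Lyz2*, *C1qa*, *C1qb*, *C1qc*, *Cd68*, *Adgre1*, *Fcgr1*, *Csf1r*, and *Ms4a7*. It also had to hold under 0.5% *Dcn* plus *Col1a2*, under 1% *S100a8* plus *S100a9*, at most 2 *Arg1* UMIs, and at least 3 *Chil3* plus *Ly6c2* UMIs. These limits selected 317 cells among 44693 barcodes, of which 36617 were kept after the UMI and mitochondrial limits and 8971 passed the macrophage gate (every limit but the last). Reference cells were the 8172 cells of the same gate with 0 *Chil3* and *Ly6c2* UMIs, and 482 cells with 1 or 2 such UMIs lay between. Because the members were chosen by their transcripts, each difference between members and reference cells is a description and carries no test.

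The cells came from full-thickness wounds made with a 4-mm punch in the dorsal skin of male C57BL/6J mice, wild-type animals of an inbred strain aged 7 to 12 weeks. Wound tissue pooled from 4 samples was dissociated with enzymes 3, 7, or 14 days after injury. Unsorted cells were captured with the 10x Chromium 3′ v3.1 chemistry. Since every day is a single library, differences between days could not be checked against replicates, and no p-value is given. Barcodes numbered 5158, 22924, and 16611 in day order, and the total UMIs ranged from 38133650 on Day 3 to 120940799 on Day 7. Between 19 and 111 barcode sequences were shared by a pair of libraries, and 0 of them were members. Levels are given as CPM, the share of a group's summed UMIs that belonged to a gene, scaled to counts per 1000000, and all intervals are exact 95% intervals that cover counting error only.

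Classical monocytes are made in the bone marrow and carry Ly6C at a high level. They leave the marrow and enter inflamed tissue through the chemokine receptor CCR2. In a skin wound they arrive during inflammation and mature into macrophages, losing Ly6C while gaining receptors for uptake and repair. Type I and type II interferons switch on a shared set of antiviral genes in monocytes through elements in their promoters.

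The promoters of the genes that chose the cells are printed here because every member was found through their transcripts. The stretches are 100 bases within the 250 bases upstream of the RefSeq start on GRCm38.p6, 5′ to 3′ along the gene. Capitals mark AGGAAGT, read on either strand, a motif of the kind that ETS-family factors such as PU.1 bind.
Chil3, chr3:106167571-106167670, minus strand: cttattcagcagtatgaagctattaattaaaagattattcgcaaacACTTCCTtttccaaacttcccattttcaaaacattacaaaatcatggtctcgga
Ly6c2, chr15:75112067-75112166, minus strand: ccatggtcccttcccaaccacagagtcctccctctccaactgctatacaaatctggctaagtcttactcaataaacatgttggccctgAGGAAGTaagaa
The motif stood in 7.69% of the 32851 upstream windows in the table and in 2 of the 12 classical monocyte genes that had one. The shorter motif GAGGAA, which can overlap AGGAAGT, stood in 23.3% of windows. TTGCNNAA, a motif of the kind that C/EBP factors bind, stood in 9.56%. A match is a description and not evidence that a factor binds there.

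Among groups of 10 or more listed genes, interferon-stimulated genes had the largest share called lower in members on Day 7 than on Day 3. The counts are described further on, with called doublets kept. Without called doublets, mature macrophage genes had the larger share, 12 of 17 against 17 of 28. With at least 5 *Chil3* plus *Ly6c2* UMIs these shares were near equal, at 10 of 17 and 17 of 29. The 4 interferon-stimulated genes with the interferon motif and the lowest ratio between those days are printed with the motif in capitals. The motif, a core of the interferon-stimulated response element, is GAAA followed after any 2 bases by GAAA, on either strand.
Ifit1, chr19:34640740-34640839, plus strand: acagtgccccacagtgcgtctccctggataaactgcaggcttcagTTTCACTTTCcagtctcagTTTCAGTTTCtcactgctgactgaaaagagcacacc
Rsad2, chr12:26456518-26456617, minus strand: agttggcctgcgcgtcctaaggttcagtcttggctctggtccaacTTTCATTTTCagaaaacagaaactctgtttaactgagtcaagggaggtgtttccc
Cxcl10, chr5:92349040-92349139, minus strand: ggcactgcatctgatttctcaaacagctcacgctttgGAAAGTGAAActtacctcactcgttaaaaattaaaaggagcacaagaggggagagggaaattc
Trim30a, chr7:104465194-104465293, minus strand: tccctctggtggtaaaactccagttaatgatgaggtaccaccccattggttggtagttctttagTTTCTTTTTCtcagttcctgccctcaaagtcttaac
The interferon motif stood in 2.98% of all windows and in 14 of the 26 interferon-stimulated genes of the list that had a window, with *Ifit1* holding it at 2 positions. *Ifit1* and *Rsad2* encode antiviral proteins, *Cxcl10* encodes a chemokine for T cells, and *Trim30a* encodes a TRIM-family regulator.

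Members made up a larger share of the macrophage gate on Day 3 than later. Day 3 had 116 members among 585 gated cells, a share of 19.8% (16.7 to 23.3%). Day 7 had 159 among 5701, a share of 2.79% (2.38 to 3.25%). Day 14 had 42 among 2685, a share of 1.56% (1.13 to 2.11%). The *Arg1* limit took 413, 1037, and 1 cells out of gates of 998, 6738, and 2686 in day order, and with those cells counted the shares were 11.6%, 2.36%, and 1.56%. Among all kept cells the shares were 2.98%, 0.840%, and 0.304%. The intervals of the 3 days did not overlap in the gate of the rule or among kept cells, but those of Days 7 (2.01 to 2.75%) and 14 (1.13 to 2.11%) did overlap with *Arg1*-positive cells counted. Day 7 held the most members in number. With a macrophage limit of 1.6% the gated shares were 21.9%, 1.16%, and 1.78%, so the order of Days 7 and 14 was the other way round. With 1 pooled library a day, a change in the wound and a difference between libraries cannot be told apart.

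The rule's genes were detected in different shares of members by day, at depths that also differed (median 6068, 2633, and 3480.5 UMIs). *Chil3* was detected in 73.3% of Day 3 members (64.3 to 81.1%, 85 cells). It was detected in 41.5% of Day 7 members (33.8 to 49.6%, 66 cells) and in 33.3% of Day 14 members (19.6 to 49.5%, 14 cells). After thinning to 1000 UMIs, *Chil3* was found in 37.9%, 28.3%, and 19.0% of members, with overlapping intervals, and *Ly6c2* in 31.0%, 66.7%, and 61.9%. Before thinning, members with *Ly6c2* and without *Chil3* were 26.7%, 58.5%, and 66.7% in the same order. At 2000 UMIs the *Chil3* shares were 54.1%, 34.1%, and 34.1% of the 111, 129, and 41 members deep enough. A *Chil3* UMI was found in 165 of 317 members over all days, and because the others were chosen by *Ly6c2* alone, members are called *Chil3*/*Ly6c2*-selected cells here. The near-identical relatives *Ly6c1* (1.36, 13.9, and 18.8 CPM in members) and *Chil4* (0 on each day) share sequence with these genes, so counts of such pairs are uncertain where reads were split.

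**Figure D1:**
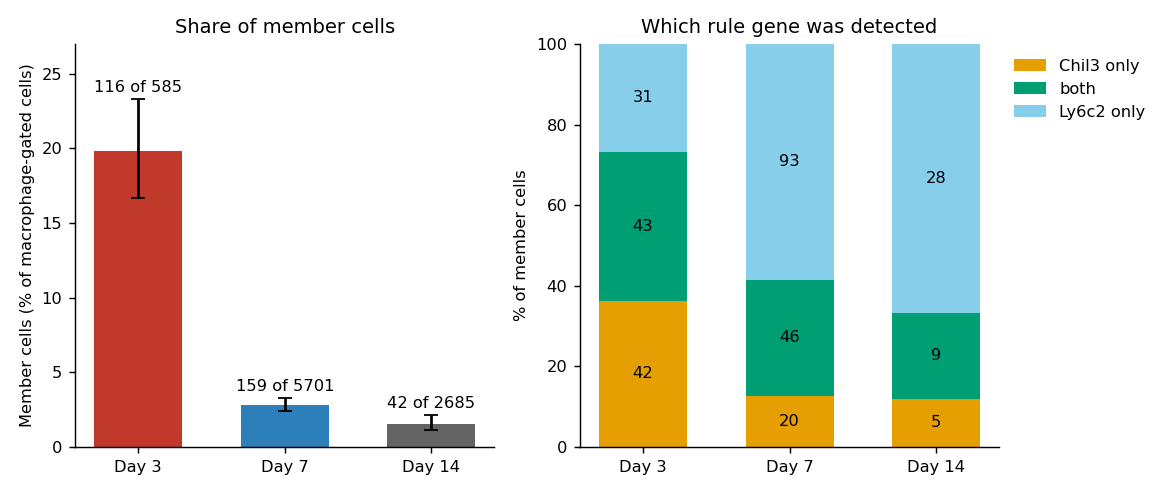
The left panel plots member cells as a percentage of macrophage-gated cells on Days 3, 7, and 14 with exact 95% intervals and the counts behind each bar, at 19.8%, 2.79%, and 1.56%. The right panel divides the members of each day by the rule gene detected, with cell numbers in the bars, and cells with *Ly6c2* only make up 26.7%, 58.5%, and 66.7%.

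The macrophage limit left out many cells that met every other limit. On Day 3, 228 cells with at least 3 *Chil3* plus *Ly6c2* UMIs lay under 0.8% macrophage genes, which was 66.3% of the 344 cells on both sides of that limit. On Day 7 there were 206 such cells (56.4%) and on Day 14 there were 30 (41.7%). On Day 3 they held 2578 CPM *Plac8* against 1496 in members and 4180 CPM *Il1b* against 2027, genes of monocytes. *Ly6c2*, a gene of the rule in both groups, was at 1035 and 434 CPM. *C1qa*, a complement gene of macrophages that the limit itself uses, was at 187 CPM in them and 2758 in members, and *Mrc1*, the mannose receptor, was at 489 and 858 CPM. On Day 14 the excluded cells were of another kind, with *Chil3* at 0 and the dendritic cell gene *Cd209a* at 468 CPM against 94.2 in members.

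At the threshold itself, 60 gated cells of Day 3 had exactly 2 *Chil3* plus *Ly6c2* UMIs and 29 had exactly 3. *Plac8* stood at 701 CPM in the first and 1006 in the second. On Day 7 such cells numbered 83 and 49, at 1320 and 1351 CPM, and on Day 14 they numbered 11 and 10, at 2182 and 1068 CPM. The limit thus parted cells with like levels of this gene on Day 7, and on Day 14 the cells outside it had the higher level. Members were deeper than reference cells on Day 3, with median UMIs of 6068 and 4593. They were shallower on Day 7, at 2633 and 2975.5, and on Day 14, at 3480.5 and 3805. Among cells of 2000 to 8000 UMIs, the Day 3 comparison of members with reference cells gave more called genes (88 higher and 77 lower) than all cells did.

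**Figure D2:**
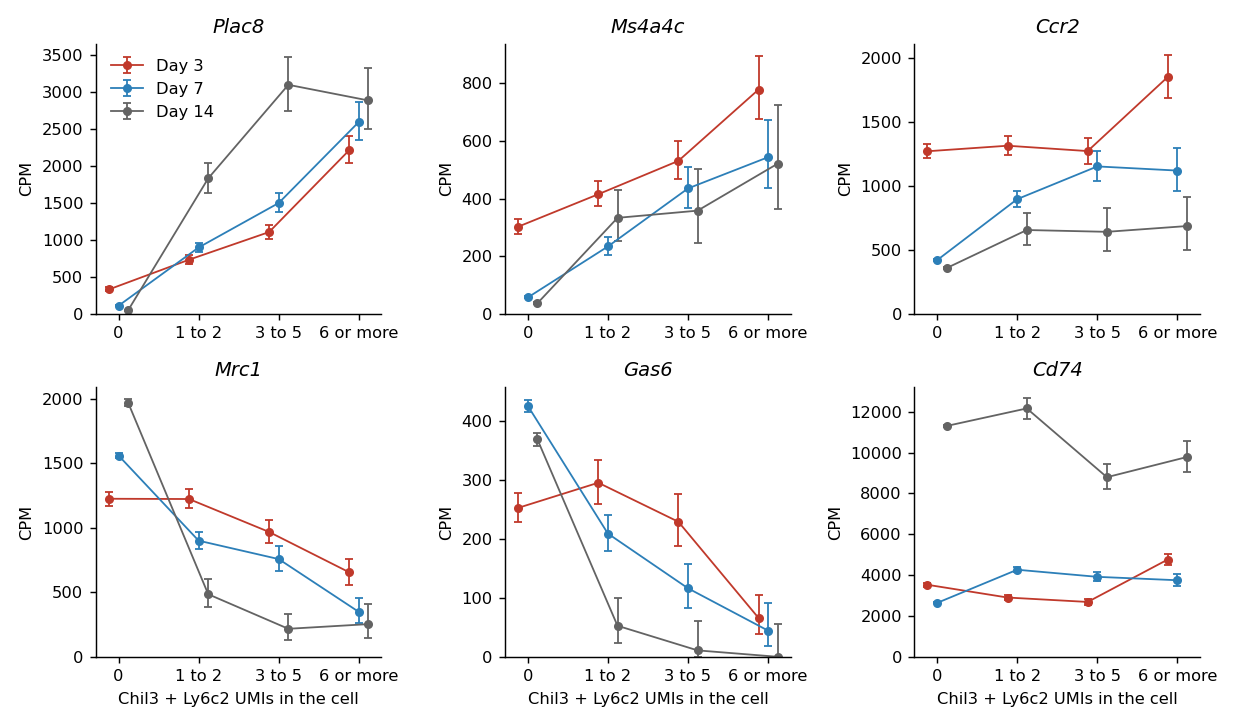
CPM (vertical axes, from 0) of 6 genes in gated cells with 0, 1 to 2, 3 to 5, and 6 or more *Chil3* plus *Ly6c2* UMIs, with exact 95% counting intervals and 1 line per day. On Day 3 *Plac8* is at 328 CPM at 0 UMIs and 2216 CPM at 6 or more, and *Gas6*, a gene of mature macrophages, at 252 and 65.9 CPM.

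The 3 named markers that the rule did not use behaved differently from each other. *Ccr2* (ENSMUSG00000049103), the receptor through which monocytes enter tissue, was at 1476 CPM in members and 1270 in reference cells on Day 3, a log2 ratio of 0.22 (0.11 to 0.32). On Day 7 it was at 1142 and 418 CPM, a ratio of 1.45 (1.32 to 1.57), and on Day 14 at 659 and 357 CPM, a ratio of 0.89 (0.59 to 1.17). Reference cells of Day 3 thus held nearly as much *Ccr2* as members. *Ms4a4c* (ENSMUSG00000024675), which encodes a membrane protein of the MS4A family, was at 618, 469, and 427 CPM in members against 302, 56.1, and 36.0 in reference cells. Its log2 ratios were 1.03, 3.06, and 3.57, of which the first was 0.98, short of 2-fold, with median-of-ratios scaling. *Rsad2* (ENSMUSG00000020641), an interferon-induced antiviral gene, was at 423, 55.7, and 18.8 CPM in members and 343, 61.9, and 29.9 in reference cells. It did not separate members from reference cells by 2-fold on any day and was high in both on Day 3.

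Shares of cells with a UMI gave the same order for the first pair of markers. After each cell was thinned to 1000 UMIs, *Ccr2* was found in 65.5%, 62.9%, and 47.6% of members and in 56.0%, 26.6%, and 20.6% of reference cells. Without thinning the members' shares were 96.6%, 88.1%, and 85.7%. *Ms4a4c* was found after thinning in 44.8%, 36.5%, and 33.3% of members and in 21.7%, 5.28%, and 3.42% of reference cells. In fibroblast-gated cells (at least 1% *Dcn* plus *Col1a2*), which should lack both genes, the thinned shares were 0%, 2.10%, and 0.761% for *Ccr2* and 0%, 0.463%, and 0.0394% for *Ms4a4c*, at median depths of 44272, 10445, and 10444.5 UMIs before thinning. Thinning such deep cells also thins a fixed number of free molecules per droplet, so these shares can understate the background of members. In the 200 neutrophil-gated cells of Day 3, which are shallow (median 1449 UMIs), 2 cells had a *Ccr2* UMI after thinning and 1 had an *Ms4a4c* UMI. For 0 of 403 fibroblast-gated cells on Day 3 the exact upper limit of the share with a UMI is 0.911%, and a floor of 3 cells would be 0.744%.

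Few genes differed by 2-fold between members and reference cells of Day 3. A gene was called when its CPM ratio was at least 2-fold with the counting interval wholly on that side of 1, among genes with at least 50 CPM in either group and leaving out the genes of the rule. Counts of called genes, by list or over all genes, can include genes under 50 CPM in the group where they are lower. Such genes passed through the other group alone and could be called in that direction only. On Day 3, 38 of 3346 genes were called higher (1.14%) and 33 lower (0.986%). On Day 7, 117 of 3105 were called higher (3.77%) and 162 lower (5.22%). On Day 14, 318 of 3205 were called higher (9.92%) and 349 lower (10.9%), from 42 cells whose 50 CPM is 7.97 UMIs. The numbers of cells and UMIs differ between days, so these counts cannot be ordered as degrees of difference. They also depend on the scaling: with median-of-ratios scaling the higher and lower counts were 29 and 41 on Day 3, 90 and 222 on Day 7, and 133 and 686 on Day 14, where it moved the median of all genes from 0.12 to -0.30. On Day 7, 20 of 159 members (12.6%), holding 24.6% of the members' UMIs, were called as doublets against 4.09% of reference cells, and without them 170 genes were called higher and 275 lower.

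Of the genes called on both Day 3 and Day 7, 17 were higher and 11 lower in members, and 14 and 10 of them were called in the same direction on Day 14. Several of the higher genes, such as *Hp* and *Vcan*, were under the CPM limit in reference cells and passed through members alone. Some of the lower genes, such as *Cd163*, passed through reference cells alone. Such genes could be called in that direction only, so these counts carry no weight as support. The highest median ratio over Days 3 and 7 belonged to the predicted gene *Gm9733*, at log2 ratios of 2.35, 4.24, and 5.67 on Days 3, 7, and 14. Next came *Plac8* (ENSMUSG00000029322), a small cysteine-rich protein of myeloid cells, at 1496, 1846, and 3013 CPM in members and 328, 107, and 45.1 CPM in reference cells. After thinning to 1000 UMIs *Plac8* was found in 57.8%, 74.8%, and 90.5% of members and in 22.7%, 7.87%, and 3.04% of reference cells (without thinning, in 96 of 116, 139 of 159, and 41 of 42 members). In neutrophil-gated cells the thinned share was 5.50% on Day 3, at a median depth of 1449 UMIs. *Hp*, the haemoglobin-binding plasma protein haptoglobin, was at 85.8, 171, and 364 CPM in members and 13.7, 13.9, and 2.86 in reference cells. *Vcan*, the matrix proteoglycan versican made by monocytes and fibroblasts, was at 146, 342, and 433 CPM against 30.5, 40.1, and 30.7, and 1 reference cell held 175 of the 333 *Vcan* UMIs of Day 14. These genes were chosen for being called higher in members on Days 3 and 7. Their lower levels in reference cells on those days follow from that choice. On Day 14, which the choice did not use, reference cells were lower in each of them as well.

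Most of these genes were detected in a minority of members. On Day 3 *Gm9733* was found in 21 of 116 members, with 46.9% of its UMIs in 5 cells, *Hp* in 31, and *Vcan* in 30. *Slpi*, a secreted inhibitor of leukocyte proteases, had log2 ratios of 3.28, 2.73, and 6.90. Its 89 UMIs on Day 3 came from 17 of 116 members, and 5 cells held 82.0% of them, and its Day 3 call was lost among members with at least 5 *Chil3* plus *Ly6c2* UMIs. *Slpi* is also a neutrophil transcript, at 5326 CPM in neutrophil-gated cells of Day 3 against 121 CPM in members. *Klra2*, a lectin-like receptor, had ratios of 1.65, 3.63, and 3.48, with UMIs in 27 of 116 members on Day 3. *Ifitm6*, of the interferon-induced transmembrane family, had ratios of 1.16, 3.69, and 3.29, with UMIs in 42 of 116 members on Day 3. The other genes called higher on both days were *Ms4a4c*, *Ifitm1*, *Itgal*, *Gsr*, *Cd300lf*, *Gpr35*, *Sorl1*, *Il1b*, *Ifit2*, and *Apoc2*, with median ratios from 1.18 to 2.05. Under median-of-ratios scaling the Day 3 calls of *Ms4a4c* (0.98), *Ifit2* (0.98), and *Il1b* (0.96) were lost, with each ratio just under 2-fold. *Ifit2* also lost its Day 3 call among cells of 2000 to 8000 UMIs (0.48) and with the mean CPM of each cell (0.83). With at least 5 *Chil3* plus *Ly6c2* UMIs it was called on neither Day 3 (0.82) nor Day 7 (0.74). On Day 3, 5 members held 49.7% of its 145 UMIs.

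The 8 lowest genes called on both days included enzymes, receptors, and a chemokine. *Lpl*, lipoprotein lipase, was at 231, 277, and 188 CPM in members and 1018, 876, and 686 CPM in reference cells. On Day 3 a single reference cell held 622 of the 1634 *Lpl* UMIs. *Cd36*, a scavenger receptor for lipids, was at 122, 101, and 37.7 CPM against 264, 531, and 263. *Fabp4*, a fatty acid-binding protein, had log2 ratios of -2.66, -1.48, and -2.35. On Day 3, however, 1 reference cell held 53 of its 97 UMIs, 5 cells held 88.7%, and the share of cells with a UMI was 5.17% in members and 4.85% in reference cells, while among cells of 2000 to 8000 UMIs the ratio was -0.78 and not called. *Serpinb6a*, a protease inhibitor, had ratios of -1.40, -1.95, and -2.78. *Cd163*, the scavenger receptor for haptoglobin-bound haemoglobin, was at 36.8, 27.8, and 12.6 CPM in members and 87.2, 107, and 86.4 in reference cells. *Ccl8*, a chemokine of resident-type macrophages, was at 286, 384, and 81.6 CPM against 758, 1283, and 2959. *Blnk*, a signalling adaptor, had ratios of -1.39, -1.38, and -3.74. *Retnla*, a gene of alternatively activated macrophages, had no UMI in members on Day 3 and had a log2 ratio of at most -6.14 against the floor of 3 UMIs, but its 462 reference UMIs came from 6 cells. On Day 7, 76 of its 80 UMIs in members came from 1 cell, so this gene says little about the members as a group, and without called doublets its Day 7 ratio was -0.74 and not called.

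**Figure D3:**
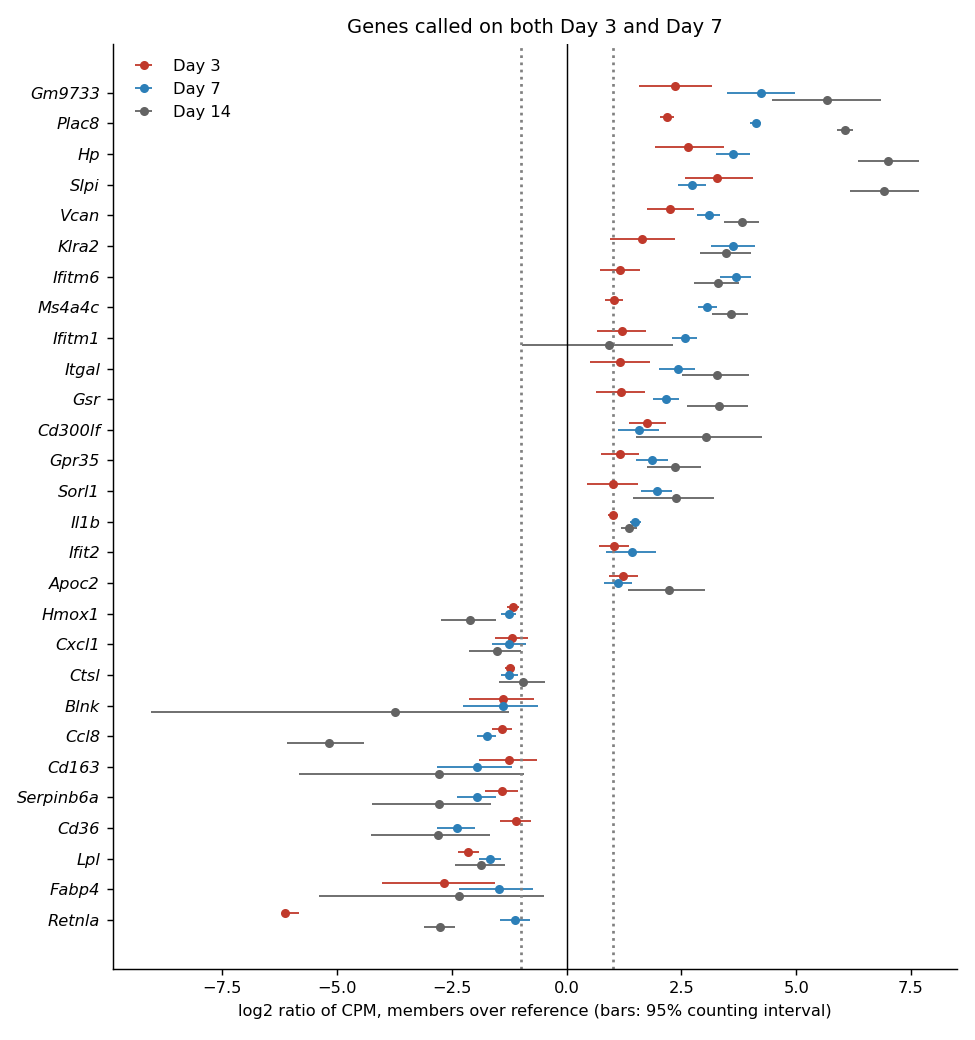
log2 ratios of CPM in members over reference cells (horizontal axis) for the 17 genes called higher and 11 called lower on both Day 3 and Day 7, 1 point per day with exact 95% counting intervals. Dotted lines mark 2-fold, the Day 3 point of *Retnla* is a bound, and *Ifit2*, with 0 UMIs in members on Day 14, has no point for that day. The ratios of *Plac8* are 2.19, 4.11, and 6.06.

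Classical monocyte genes were the listed group with the most genes called higher. On Day 3, 5 of the 16 listed genes that passed the level limit were called higher and 0 lower, with a median log2 ratio of 0.69 against 0.03 over all genes. On Day 7 it was 12 of 18 with a median of 1.49, and on Day 14 13 of 17 with a median of 2.11. The shares of all genes called higher were 1.14%, 3.77%, and 9.92%. The list counts include genes under 50 CPM in reference cells, such as *Hp* and *Vcan*, and *Napsa* on Days 7 and 14. They passed through members alone and could be called higher only, so the list counts carry no weight as support. With no minimum CPM and at least 10 UMIs, 6, 12, and 13 of 18 were called higher, with medians of 0.69, 1.49, and 2.02. *Thbs1*, the matrix protein thrombospondin 1, was at 3704, 2894, and 3634 CPM in members and 1968, 1037, and 706 in reference cells. *Ifitm3*, an antiviral membrane protein, was at 2283, 2558, and 5091 CPM against 1386, 901, and 1182. *Napsa*, an aspartic protease, was at 57.2, 159, and 295 CPM against 34.9, 28.6, and 28.2.

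Patrolling monocyte genes, which mark the Ly6C-low subset that crawls along vessels, had no common direction. *Itgal*, a subunit of the integrin LFA-1, was called higher on each day, at 57.2, 127, and 119 CPM against 25.5, 23.8, and 12.3. *Cd36* was called lower. *Cx3cr1*, the fractalkine receptor, and *Nr4a1*, a nuclear receptor needed by that subset, were called on no day, with log2 ratios of 0.36, 0.51, and 0.06 for *Cx3cr1* and 0.17, 0.46, and 0.12 for *Nr4a1*.

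Nearly all mature macrophage genes were lower in members on Days 7 and 14. On Day 3, 2 of 18 that passed were called lower and 0 higher, with a median of -0.34. On Day 7 it was 17 of 19, with a median of -1.29 (-1.96 without called doublets), and on Day 14 18 of 18, with a median of -2.73. The shares of all genes called lower were 0.986%, 5.22%, and 10.9%. The list counts include genes under 50 CPM in members, such as *Cd163* on each day and *Gas6* on Day 14. On Day 14 these genes had 2 and 1 UMIs in members. They passed through reference cells alone and could be called lower only, so the list counts carry no weight as support. *Mrc1* was at 858, 628, and 232 CPM in members and 1225, 1560, and 1970 in reference cells. *Gas6*, a ligand for the uptake of dying cells, was at 172, 93.5, and 6.28 CPM against 252, 425, and 368. *Pf4*, a chemokine of tissue macrophages, was at 1487, 905, and 201 CPM against 2358, 2465, and 2867. *Apoe*, the lipid carrier, was the exception on Day 3, at 7020 CPM in members and 6209 in reference cells. It was lower in members later, at 8035 against 14469 CPM on Day 7 and 2743 against 13379 on Day 14. *Ctsd*, a lysosomal protease, was at 2397, 1181, and 157 CPM against 3151, 2684, and 833. Per cell, the list made up a median of 1.59%, 0.736%, and 0.309% of a member's UMIs and 2.08%, 3.03%, and 2.82% of a reference cell's. *C1qa*, which the gate itself uses, was found after thinning to 1000 UMIs in 72.4%, 35.8%, and 9.52% of members. In reference cells these shares were 89.0%, 86.3%, and 84.7%.

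**Figure D4:**
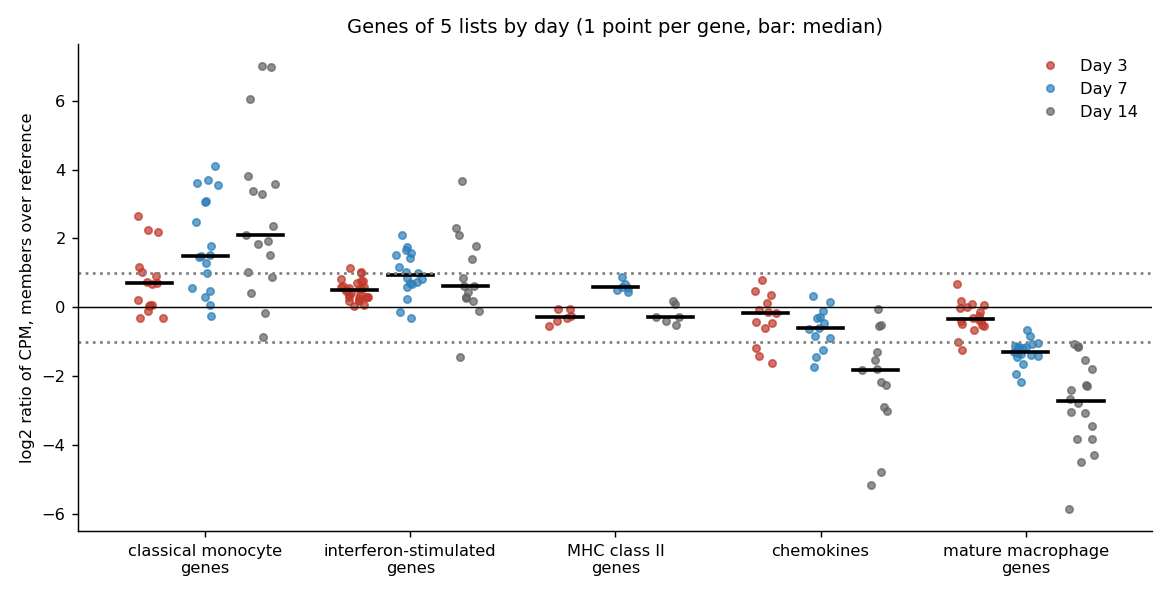
log2 ratios of CPM in members over reference cells (vertical axis) for the genes of 5 lists that passed the level limit, 1 point per gene, coloured by day, with a bar at the median and dotted lines at 2-fold. The medians of classical monocyte genes are 0.69, 1.49, and 2.11 on Days 3, 7, and 14, and those of mature macrophage genes are -0.34, -1.29, and -2.73.

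*Il1b* was higher in members, and few chemokines were called before Day 14, each of them lower. *Il1b*, the inflammatory cytokine interleukin 1 beta, was at 2027, 1223, and 1802 CPM in members and 1007, 433, and 702 in reference cells, and was called higher on each day. Its Day 3 ratio of 1.01 lay at the limit and the call was lost with median-of-ratios scaling (0.96, and 0.94 on Day 14), without called doublets (0.98), and without the 50 most abundant genes. Of the inflammatory cytokines and mediators that passed, 2 of 11 were called higher and 2 lower on Day 3, 3 of 9 and 1 on Day 7, and 2 of 10 and 4 on Day 14, so the list had no common direction. All genes were called higher and lower at 1.14% and 0.986%, 3.77% and 5.22%, and 9.92% and 10.9%. *Il10*, an anti-inflammatory cytokine, was at 95.3, 13.9, and 12.6 CPM against 122, 107, and 124, called lower on Days 7 and 14. *Ptgs2*, the prostaglandin-forming enzyme COX-2, was called on no day. Of 13 chemokines, 0 were called higher on any day, and 3, 3, and 10 were called lower, beside 0.986%, 5.22%, and 10.9% of all genes, with list medians of -0.17, -0.60, and -1.84. For a list of this size, 0 called higher is near the share of all genes (1.14%, 3.77%, and 9.92%). *Cxcl1*, which attracts neutrophils, was at 106, 125, and 176 CPM against 244, 299, and 506, and its Day 3 call was lost among cells of 2000 to 8000 UMIs (-0.87). *Cxcl3*, of the same family, was at 49.0, 41.8, and 31.4 CPM against 152, 63.4, and 110. *Ccl6* and *Ccl9*, myeloid chemokines and the listed ones with the most UMIs on Day 3, were called on no day.

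Adhesion genes were called higher for 4 and 5 of 10 on Days 7 and 14, and receptors had 1 or 2 genes called higher a day. Of 8 chemoattractant receptors that passed, 1, 2, and 1 were called higher on Days 3, 7, and 14, and 0, 0, and 2 lower. The 1 of 8 on Day 14 stood beside 9.92% of all genes. *Fpr2*, a receptor for formylated peptides and resolving lipids, was called higher on Day 3 at 70.8 CPM against 24.3. *Ltb4r1*, the leukotriene B4 receptor, was called higher on Day 7 at 53.7 against 9.87 CPM and on Day 14 at 94.2 against 19.1. In these comparisons *Fpr2* and *Ltb4r1* were under the CPM limit in reference cells and passed through members alone. They could be called higher only, so their calls carry no weight as support. *Ccr2*, also called higher on Day 7, was over the limit in members and reference cells. *Ccr1* and *Cxcr4*, further chemokine receptors, were called on no day. Of the adhesion and extravasation genes, 1 of 8, 4 of 10, and 5 of 10 were called higher and 0 lower, beside the same shares of all genes (1.14%, 3.77%, and 9.92%), with medians of -0.07, 0.71, and 1.20. These adhesion counts include *Itgal*, which was under the CPM limit in reference cells on each day and could be called higher only. The adhesion counts therefore carry no weight as support. *Emilin2*, a matrix glycoprotein, was at 199, 324, and 320 CPM against 168, 142, and 96.4, and *Itga4*, a subunit of the integrin VLA-4, was at 127, 211, and 326 CPM against 89.1, 112, and 115. *Cd44* and *Itgam*, the hyaluronan receptor and a subunit of the integrin Mac-1, were called on no day. Of the pattern recognition receptors, 0 of 6, 2 of 6, and 1 of 5 were called higher and 0, 1, and 0 lower, where the counts of Days 3 and 14 are near the shares of all genes (1.14% and 9.92% higher). *Clec4e*, the lectin Mincle, was at 350, 330, and 396 CPM against 213, 96.8, and 97.8, while *Cd14*, the lipopolysaccharide co-receptor, had log2 ratios of 0.71, 1.01, and 0.94, of which the called Day 7 value was 0.88 with median-of-ratios scaling.

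Antigen presentation genes varied widely from cell to cell, in members and reference cells alike. Of 6 MHC class II genes that passed, 0 were called in either direction on each day. Their median log2 ratio was -0.29, 0.57, and -0.29, and the Day 3 value took the opposite sign when each cell weighed equally (0.06) or only cells of 2000 to 8000 UMIs were used (0.14). *Cd74*, the invariant chain of MHC class II, was at 3417, 3864, and 9215 CPM in members and 3528, 2639, and 11308 in reference cells. On Day 3 the list made up a median of 0.109% of a member's UMIs, an upper quartile of 1.00%, and at most 3.98%. In reference cells these values were 0.0312%, 0.811%, and 5.84%, so both groups ranged widely in these transcripts. After thinning to 1000 UMIs, *Cd74* was found in 52.6%, 59.1%, and 71.4% of members and 36.6%, 43.4%, and 83.9% of reference cells. In fibroblast-gated cells it was found in 1.24%, 9.19%, and 8.78%.

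Few transcription factors were called, and metabolic genes were called on Days 7 and 14. Of 13 myeloid transcription factors that passed, 0 were called higher on any day and 0, 2, and 3 were called lower (7 on Day 14 with median-of-ratios scaling), beside 1.14%, 3.77%, and 9.92% of all genes called higher and 0.986%, 5.22%, and 10.9% lower. *Maf*, a factor of mature macrophages, was at 1454, 593, and 62.8 CPM against 1750, 1451, and 523. *Cebpb*, the listed factor with the most UMIs, was at 4300 CPM in members on Day 3 against 4256. *Klf2* and *Bhlhe40* had Day 3 log2 ratios of -0.95 and -0.92, short of 2-fold. Of the glycolysis and hypoxia genes, 0 of 12, 2 of 11, and 3 of 10 were called higher and 0, 0, and 1 lower, beside 1.14%, 3.77%, and 9.92% of all genes called higher. *Slc16a3*, the lactate exporter MCT4, was at 231, 137, and 195 CPM against 157, 53.4, and 31.8, and *Slc2a1*, the glucose transporter GLUT1, at 79.0, 87.5, and 81.6 against 56.7, 40.8, and 32.1, with its calls on Days 7 and 14 lost under median-of-ratios scaling (0.97 and 0.93). *Gapdh*, *Pkm*, and *Pfkp* were called on no day.

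Neutrophil markers summed to far less in members than in neutrophil-gated cells, a contrast that the *S100a8* plus *S100a9* limits of these groups favour. On each day the same markers summed to more in members than in reference cells. Fibroblast markers were present in members and reference cells alike on Days 7 and 14. The 10 neutrophil markers summed to 218, 229, and 226 CPM in members, 178, 186, and 55.8 CPM in reference cells, and 26610, 17636, and 2241 CPM in neutrophil-gated cells (at least 5% *S100a8* plus *S100a9*), which numbered 200, 40, and 4 cells. *Retnlg*, a defining neutrophil marker, was at 0 in members on each day, 2, 1, and 6 of the 10 markers were at 0, and *Csf3r*, the G-CSF receptor, was at 96.7, 61.7, and 94.2 CPM against 82.2, 53.1, and 30.9. *Mmp8*, a neutrophil collagenase, was called higher on Day 7 at 59.7 against 5.40 CPM and on Day 14 at 62.8 against 0.738. On Day 7 its 59.7 CPM was 30 UMIs, and with *S100a8* plus *S100a9* limited to 0.3% it no longer reached the 50 CPM limit and so could not be called. On Day 14 *Csf3r* and *Il1r2* were called higher as well. These 3 markers reached the 50 CPM limit through the members alone, so their count carries no weight. The 7 fibroblast markers, among them the collagen genes *Col1a1* and *Col3a1* and the matrix gene *Sparc*, summed to 304, 2582, and 2825 CPM in members and 338, 2902, and 3359 in reference cells, and 0 were called. After thinning, *Col1a1* was found in 7.76%, 72.3%, and 73.8% of members and in 12.6%, 72.6%, and 77.9% of reference cells. Of the dendritic cell markers only *Cd209a* passed, on Day 14, at 94.2 CPM against 34.2, and the 9 markers summed to 32.7, 87.5, and 144 CPM. The 6 lymphocyte markers summed to 1.36, 0, and 0 CPM. No lymphocyte marker and no marrow granule or progenitor gene passed on any day. Of the cell cycle genes 2 passed, on Day 14, and *Stmn1* was called lower, and of the markers of other cells *Krt10*, a keratin, was called lower on Day 14. The part of these transcripts in the values of members was not tested.

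Summed over the list, interferon-stimulated genes were higher on Day 3 than afterwards in members and in reference cells. Single genes differed, and *Ifi27l2a*, *Slfn1*, and *Zbp1* were highest in members on Day 14. The 32 listed genes measured summed to 7006, 3966, and 4017 CPM in members and 5101, 2066, and 1890 in reference cells. A member held a median of 0.583% of its UMIs in the list on Day 3, with a range from 0.0195 to 2.79%, against 0.335% on Day 7 and 0.324% on Day 14. Against reference cells, 2 of 28 that passed were called higher on Day 3, with a list median of 0.49. Day 7 had 9 of 18 called higher (median 0.93) and Day 14 had 5 of 14 (median 0.61), with 1, *Cxcl10*, called lower on Day 14. The shares of all genes called higher on the 3 days were 1.14%, 3.77%, and 9.92%. *Slfn1*, a schlafen-family gene, was at 117, 115, and 126 CPM against 78.5, 26.9, and 9.96. *Zbp1*, a sensor of nucleic acids, was at 123, 93.5, and 151 CPM against 71.7, 29.7, and 30.7. *Ifit2*, an antiviral gene, was at 197, 63.6, and 0 CPM against 96.6, 23.6, and 9.41. In reference cells *Slfn1* and *Zbp1* were under 50 CPM on Days 7 and 14, as was *Ifit2* on Day 7. There they passed through members alone and could be called higher only, so the list counts carry no weight as support. With no minimum CPM and at least 10 UMIs, 11 of 32 were called higher on Day 7 (median 0.72) and 5 of 25 on Day 14 (median 0.45). *Ifi27l2a*, the listed gene with the most UMIs, was at 1101, 1400, and 2247 CPM against 771, 629, and 661, and *Ifi204*, a DNA sensor, at 694, 286, and 188 CPM against 454, 158, and 152. Of the interferons and their receptors, 4 receptor genes passed. *Ifngr1*, a chain of the type II receptor, was called higher on Day 14 only, at 571 against 277 CPM, a call it lost under median-of-ratios scaling, and *Ifnar1*, *Ifnar2*, and *Ifngr2* were called on no day.

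Between days, members of Day 7 had fewer transcripts of that list than members of Day 3. Over all genes, 84 of 3355 were called higher on Day 7 (2.50%) and 403 lower (12.0%), with a median log2 ratio of -0.28. Without the 50 most abundant and mitochondrial genes these counts were 146 and 225, and with median-of-ratios scaling 137 and 244. Of the interferon-stimulated genes, 0 of 28 that passed were called higher and 18 lower, with a median of -1.26. The 18 became 15 under either of these scalings, which brought the median of all genes to -0.07 and -0.10. *Ifit1* went from 117 to 9.94 CPM, *Rsad2* from 423 to 55.7, *Cxcl10* from 207 to 43.8, and *Trim30a* from 572 to 217. *Ifit1*, *Cxcl10*, *Oasl1*, *Usp18*, and others of the 18 were under 50 CPM on Day 7 and passed through Day 3 alone. Such genes could be called lower only, so the count of 18 carries no weight as support. *Slfn1* and *Ifi27l2a* were not called, at ratios of -0.02 and 0.35. *Ifit1* was lower on Day 7 in reference cells too, at a ratio of -2.70 against -3.56 in members.

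Within the list, genes with and without the interferon motif in their window were called lower in similar shares. Among genes with the motif, such as the 4 printed above, 8 of 12 that passed were called lower with a median of -1.22. Among those with a window and no motif it was 7 of 10 with a median of -1.49, and among those without a listed window 3 of 6, with a median of -0.91. These counts include genes that passed through Day 3 alone, such as *Ifit1* and *Cxcl10* with the motif and *Slfn4* and *Cmpk2* without it. With so few genes, and 6 of unknown motif status, the counts cannot show whether genes with the motif differ from the others.

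**Figure D5:**
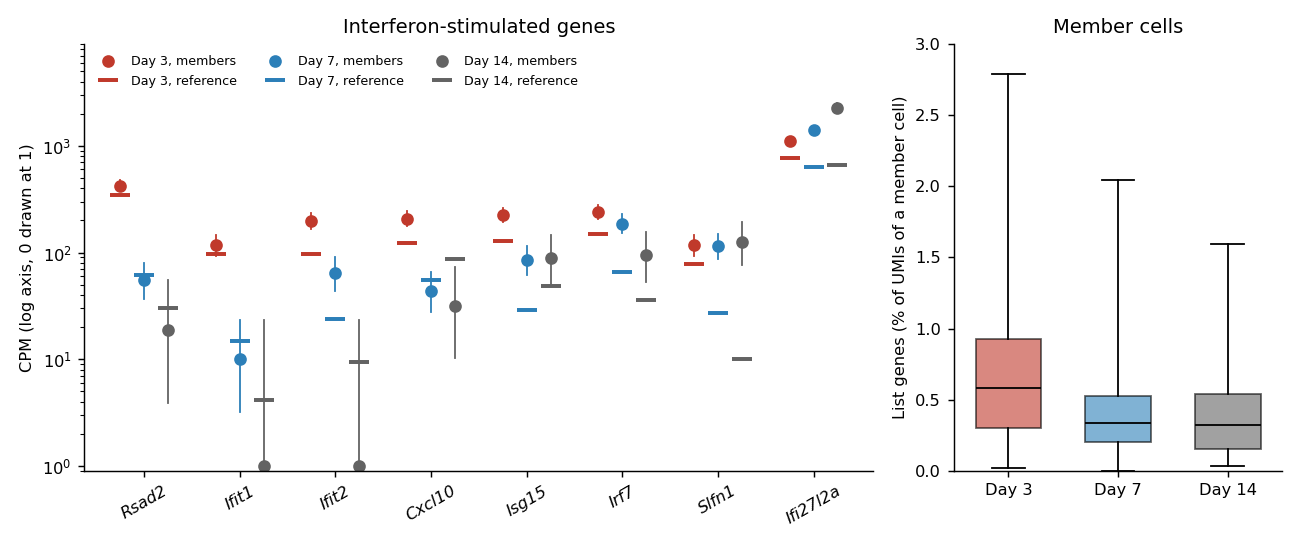
The left panel plots CPM (log axis, 0 drawn at 1) of 8 interferon-stimulated genes on Days 3, 7, and 14, with dots for members, exact 95% counting intervals as lines, and dashes for reference cells. The right panel plots the share of each member's UMIs in the list, with boxes from the lower to the upper quartile, a line at the median (0.583%, 0.335%, and 0.324%), and whiskers at the lowest and highest cell.

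Genes outside the list were also among those with the largest ratios between Day 7 and Day 3. Among the lowest ratios, beside that of *Ifit1*, was that of *Cd40*, a costimulatory receptor, at -3.88 (-6.97 to -1.94), from 2 UMIs on Day 7. *Slc28a2*, a nucleoside transporter, was at -3.36, and *Ccnb1ip1*, a cell cycle-related ligase, at -3.29. In reference cells the same ratios were -1.88, -2.17, and -2.26, so each was negative there as well, and the difference between the groups was not tested. The highest ratios were those of *Retnla* (at least 5.28, from the single cell already described), *Col6a3* (4.76), *Postn* (4.68), *Meg3* (3.66), and *Dpt* (at least 3.66). *Col6a3*, *Postn*, and *Dpt* encode matrix proteins of fibroblasts, and in reference cells their ratios were 4.99, 4.43, and 3.84. The fibroblast markers that passed were all called higher on Day 7, 5 of 5 at a median of 3.15, beside 2.50% of all genes. Fibroblast-gated cells numbered 403 on Day 3 and 7131 on Day 7. Whether these transcripts were made by the members was not tested.

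With called doublets kept, the lists that follow had smaller shares of calls between Days 3 and 7 than interferon-stimulated genes. Without called doublets, 17 of 28 interferon-stimulated genes were called lower. Over all genes, 2.50% were called higher and 12.0% lower between these days. Classical monocyte genes were called higher for 4 of 18, among them *Vcan*, *Mgst1*, and *Napsa*, and 0 lower. Among cells of 2000 to 8000 UMIs only 2 of 18 were called, with a median of 0.04, and *Vcan* (0.82) was not among them. Chemokines were called lower for 4 of 12, *Ccl2*, *Ccl7*, *Ccl9*, and *Ccl12*, and 0 higher. Mature macrophage genes were called lower for 7 of 17 and higher for 1, *Fabp5*. Without called doublets 12 were lower and 0 higher, with a median of -1.76, and among cells of 2000 to 8000 UMIs 4 were lower, so this count depends on which cells are kept. *Cxcr4*, a receptor that retains cells in marrow, went from 1218 to 239 CPM, and *Cebpb*, a factor of inflammatory activation, from 4300 to 1852. These are levels in members, and the change in reference cells is not given here. *Itgal* was called higher at 1.15, but not among cells of 2000 to 8000 UMIs (0.68). Of the MHC class II genes, 1 of 6, *H2-Eb1*, was called higher, with a list median of 0.82. It was 3 of 6 under either other scaling (medians 1.03 and 1.00) and 4 of 6 without called doublets (1.06).

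The members were also divided by the rule gene they carried, a division chosen by the same transcripts and given as a description. On Day 3, 42 members held *Chil3* and no *Ly6c2*, and 31 held *Ly6c2* and no *Chil3*. *Plac8* was at 930 CPM (821 to 1049) in the first and 2221 (2006 to 2452) in the second. *Ms4a4c* was at 384 and 977 CPM, and *Spp1*, the matrix protein osteopontin made by wound macrophages, at 3360 and 1000 CPM. The *Chil3*-only cells of Day 3 thus held less of these monocyte genes and more *Spp1*, but *F13a1*, a transglutaminase gene of monocytes, was at 1197 and 1153 CPM and *Thbs1* at 3426 and 3493. *H2-Ab1*, an MHC class II chain, was at 606 and 1318 CPM. On Day 7, 20 members held *Chil3* only and 93 *Ly6c2* only, with *Plac8* at 977 and 1898 CPM, *Ms4a4c* at 192 and 554, and *H2-Ab1* at 737 and 2602. Several genes were higher in the *Chil3*-only cells of that day. *Thbs1* was at 4118 and 2005 CPM, *Vcan* at 497 and 250, *Fn1*, fibronectin, at 1266 and 594, and *F13a1* at 1074 and 731. *Slpi* was at 737 and 70.1 CPM, with 35 of the 105 UMIs of all Day 7 members in 1 cell. On Day 3 *Vcan* (56.3 and 210 CPM), *Fn1* (863 and 1306), and *Slpi* (81.0 and 176) were instead lower in the *Chil3*-only cells. The listed monocyte genes therefore had no common direction between these cells. *Ccr2* stood at 1299 and 1522 CPM on Day 3 and at 1490 and 1134 CPM on Day 7. Members with both genes lay between or near the *Ly6c2*-only cells in *Plac8*, at 1617 CPM on Day 3, or above them, at 2119 CPM on Day 7. *F13a1*, *Fn1*, *H2-Ab1*, *Spp1*, and *Slpi* were chosen for this comparison after their values were seen.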

How the data were processed

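Wound cells were measured by droplet-based 3′ single-cell RNA sequencing in 3 libraries, 1 each for Days 3, 7, and 14. The authors deposited raw UMI counts per gene and barcode as matrices, not normalised. The submitters' processing notes name Cell Ranger 6.0.0 and mm10, and every barcode held at least 500 UMIs. The Day 3, 7, and 14 tables held 38133650, 120940799, and 112713257 UMIs, and 50 CPM in members was 36.7, 25.1, and 7.97 UMIs, which limits what their counts can show. Of 32285 gene IDs, 32158 had a symbol, matched by Ensembl ID. *Mx1*, *Mx2*, *Clec7a*, and *Aldoa* (a symbol held by more than 1 ID) were not analysed here. No column was left unused for want of a sample.

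The members, the 20 gene lists, and the comparisons were chosen with earlier results of these data known. UMIs were summed over cells per library and group, and divided by all UMIs of the group to give CPM. Intervals at 95% were exact Poisson for CPM, exact Clopper-Pearson for shares, and exact conditional binomial for ratios. They treat UMIs as independent, so they cover counting error only and not the spread between cells or wounds. A ratio with 0 UMIs on one side was taken against a floor of 3 UMIs and given as a bound. Genes were called at 2-fold and 50 CPM, and the calculation was tested on simulated data. The genes named were up to 5 examples of each list (largest median ratio, highest level), the 8 highest and 8 lowest median ratios among genes called in the same direction on Days 3 and 7, and the 5 highest and 5 lowest ratios of Day 7 over Day 3 in members. Genes named outside this rule (*Fpr2*, *Ltb4r1*, *Mmp8*, *Il1r2*, *Stmn1*, *Krt10*, *Cd209a*, the remaining genes called on both days, and those of the division by rule gene) were chosen after their values were seen. Day 14 was not set against Day 7 in members because it had fewer than 50. Some genes that the rule names are not reported here.

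Doublets were scored within each library against simulated doublets (2000 genes, 30 principal components, 50 neighbours) and called up to a share of 0.5 of a rate of 0.8% per 1000 barcodes. They were kept in the main values. Neutrophil-gated cells held at least 5% *S100a8* plus *S100a9* and under 5% macrophage genes. Promoter windows (250 bases upstream, GRCm38.p6) came from RefSeq and were searched for 4 motifs on both strands. Python 3.11.15, numpy 2.4.6, scipy 1.17.1, pandas 2.3.3, scikit-learn 1.9.0, and matplotlib 3.10.9 were used.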

Additional observations from a re-analysis of the deposited data

How the results depend on the processing

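With 1 library a day, nothing here separates the day from the library, and every interval covers counting error alone. Members of Day 14 were 42 cells, so most of their values rest on few UMIs. No paired analysis was possible because the labels give no replicate numbers and each day is 1 library. Shares among gated cells moved by more than their interval as follows. With at least 5 *Chil3* plus *Ly6c2* UMIs they were 11.3%, 1.37%, and 0.857% on Days 3, 7, and 14, and with at least 1 such UMI after thinning to 1000 UMIs the Day 7 share was 4.30%. A macrophage sum of at least 1.6% gave 1.16% on Day 7, and one of at least 0.4%, an alternative chosen after seeing the data, gave 25.5% on Day 3 and 3.72% on Day 7. Among kept cells, at least 5 UMIs gave 1.70%, 0.412%, and 0.167%, a sum of 1.6% gave 0.540%, 0.132%, and 0.203%, a sum of 0.4% gave 7.09% and 1.40% on Days 3 and 7, thinning gave 1.29% on Day 7, and a minimum of 2000 UMIs gave 3.73% on Day 3. Day 3 had the highest share of gated and of kept cells under each of these settings. Counts of called genes moved by over 1.5 times as follows, and the cause was not tested. For Day 7 over Day 3 in members, 146 genes were higher and 225 lower without the 50 most abundant and mitochondrial genes, 137 and 244 with median-of-ratios scaling, and 242 and 664 with no minimum CPM. These scalings moved the share of higher among all calls from 17.2% to 39.4% and 36.0%. On Day 14 the median of ratios gave 133 higher and 686 lower, with the median of all genes at -0.30 in place of 0.12 and the share of higher calls at 16.2% in place of 47.7%. The same scaling took that share from 53.5% to 41.4% on Day 3 and from 41.9% to 28.8% on Day 7. Against reference cells, cells of 2000 to 8000 UMIs gave 88 and 77 on Day 3, and at least 5 UMIs gave 74 and 71 on Day 3 and 190 and 256 on Day 7. No minimum CPM gave 157 and 195 on Day 3 and 350 and 437 on Day 7, and without called doublets 275 were lower on Day 7. Under the median of ratios, list medians that changed sign on Day 14 were those of patrolling monocyte genes (-0.33), inflammatory mediators (-0.14), chemoattractant receptors (-0.13), interferons and receptors (-0.13), and pattern recognition receptors (-0.02). Of 2390 ratios of named genes recomputed over 8 settings, 2061 moved by less than their interval, 329 moved by more, and 0 changed sign after a call. Of 998 that were called, 957 were still called.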
